A study of Mus musculus with 10 samples.

Results

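Lysosome and autophagy genes were followed in *Max*-null ESCs as they lost MAX. The list holds 44 genes, chosen by their known function, of which 43 were measured among 18193 genes. *Cd63* was not analysed here. *Max*-null ESCs are male 129SV mouse embryonic stem cells in which both copies of *Max* are disrupted and a *Max* cDNA is held under a tetracycline-off system, so that doxycycline (Dox) stops its expression. All 10 samples share this genotype. Under LIF+serum (leukaemia inhibitory factor and serum), 1 array set held untreated cells and cells after 1, 2, 3 and 4 d of Dox (set 1), and another held untreated cells and cells after 6 and 8 d (set 2). In the 2i+LIF condition, in which inhibitors of MEK and GSK3β are added, 1 array held cells after 6 d of Dox with 2i for the same 6 d and 1 array cells after 6 d of 2i without Dox. Each condition is 1 Affymetrix expression array, and nothing in the sources used here tells whether the untreated arrays were separate cultures, so the p-values below reflect how far these arrays vary, a spread that may be technical. Levels are log2 values from robust multi-array analysis (RMA), each gene was read from its brightest probe set with that symbol alone, and folds divide by the untreated array of that set.

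Lysosomes are acidic organelles in which hydrolases break down proteins, glycans and lipids delivered by endocytosis and by autophagy. The V-ATPase pumps in the protons, membrane proteins such as LAMP1 and LAMP2 line the organelle, and autophagosomes, built with LC3 and GABARAP proteins, fuse with it. TFEB and TFE3 are helix-loop-helix leucine zipper factors that switch on many of these genes through a promoter element whose core, CACGTG, is the same E-box that MYC-MAX dimers bind.

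Because both kinds of factor read this E-box, promoter windows were searched for it (RefSeq, GRCm38.p6, 250 bases before to 50 bases after a start site, 38 of the 43 members with a window). CACGTG, which reads the same on both strands, lay in a window of 12 of the 38 members (31.6%), against 8.09% of 27025 genes. The windows of *Atp6v0d1*, *Ctsa*, *Ctsd*, *Gla* and *Mcoln1* also held the longer palindrome TCACGTGA, which contains the E-box, so that 13.2% of the members and 1.13% of genes had it. The other members with CACGTG were *Ctsf*, *Ctsl*, *Gaa*, *Glb1*, *Lamp1*, *Naglu* and *Sgsh*. *Npc1*, *Ctsb*, *Ctsh*, *Asah1* and *Atp6v1h* had no window in the table. A gene counted if any of its windows held the motif, and 4 members had 2 or more windows. The 27025 genes are all those with a window and were not matched to the members in level. These matches are a description of letters and not of binding.

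The 150 bases before a start site are shown for *Lamp1*, which had the most copies (4), for *Mcoln1* (2 copies), and for *Ctsf*, *Naglu* and *Ctsa*, whose levels are described below. Each stretch reads from 5′ to 3′ along the gene and its CACGTG copies are in capitals. They lie on the plus strand of GRCm38.p6 at chr8:13159011-13159160 (*Lamp1*), chr8:3500369-3500518 (*Mcoln1*), chr19:4855015-4855164 (*Ctsf*), chr11:101069944-101070093 (*Naglu*) and chr2:164833623-164833772 (*Ctsa*). The stretch of *Ctsa* lies inside the gene, which begins at chr2:164832872, and so belongs to a later start site. All CACGTG copies found for *Ctsa* were in the window of that later site.
Lamp1: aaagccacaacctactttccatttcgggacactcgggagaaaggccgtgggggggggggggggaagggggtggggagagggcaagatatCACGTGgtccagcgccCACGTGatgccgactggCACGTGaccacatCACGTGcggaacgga
Mcoln1: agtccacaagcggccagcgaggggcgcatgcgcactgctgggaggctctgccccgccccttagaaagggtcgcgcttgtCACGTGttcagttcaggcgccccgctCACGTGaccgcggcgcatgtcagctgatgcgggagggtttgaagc
Ctsf: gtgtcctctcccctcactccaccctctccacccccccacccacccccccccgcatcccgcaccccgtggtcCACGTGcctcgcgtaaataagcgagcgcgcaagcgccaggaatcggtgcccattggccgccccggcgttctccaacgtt
Naglu: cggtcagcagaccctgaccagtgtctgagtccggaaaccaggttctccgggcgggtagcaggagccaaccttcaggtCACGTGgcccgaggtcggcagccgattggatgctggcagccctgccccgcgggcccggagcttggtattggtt
Ctsa: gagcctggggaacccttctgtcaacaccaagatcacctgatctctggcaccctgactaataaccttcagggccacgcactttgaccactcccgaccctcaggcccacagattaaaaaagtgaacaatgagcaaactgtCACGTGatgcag

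The members were mostly well expressed. The mean level over the LIF+serum arrays was at least 8 in 28 of the 43 members, and only *Ctss*, *Naglu* and *Sgsh* stayed below 6 on every LIF+serum array. All 8 markers of ESCs (*Pou5f1*, *Sox2*, *Nanog* and others) were above 6 on all 10 arrays. The brightest probe set of *Max* gave 0.773-fold after 4 d, 1.38-fold after 8 d and 0.870-fold in 2i+LIF, and since the sources used here do not say whether it reads the cDNA, it checks nothing. The 3′ minus 5′ signal of beta-actin, which grows as RNA shortens, was 0.41 (log2) on the untreated array of set 1 and 0.52 to 0.56 at 1 to 4 d, but 0.88 on the untreated array of set 2, 1.46 at 6 d and 1.22 at 8 d. That of *Gapdh* was -0.03 on the untreated array of set 1 and -0.09 to -0.01 at 1 to 4 d. In set 2 it was 0.12 on the untreated array, 0.09 at 6 d and 0.05 at 8 d. Both signals were thus higher on every array of set 2 than on any of set 1. Within set 2 that of beta-actin was higher with Dox and that of *Gapdh* slightly lower. The part of RNA quality in the results at 6 and 8 d was not tested.

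With days of Dox in LIF+serum, 2 of the 43 members rose and 4 fell at an adjusted p under 0.05 in limma, with the array set as a covariate, where 4.77% of 45037 probe sets rose and 4.17% fell. *Ctsh* and *Naglu* rose, and *Gabarapl1*, *Tfe3*, *Tfeb* and *Gusb* fell. The 4.65% of members that rose thus lay at the background, and the 9.30% that fell were above it by few genes. At an unadjusted p under 0.05 in limma, 6 members had a positive and 8 a negative slope, against 5252 and 5594 of the 45037 probe sets. The median slope was 0.023 per day (log2) over the members and -0.00705 over all probe sets. When the untreated array of set 2 was left out, limma called 0 members and 0 of all probe sets, so that no call held without it. The slopes kept their direction there, at 0.17 per day for *Ctsh*, 0.14 for *Naglu*, -0.31 for *Gabarapl1*, -0.13 for *Tfe3*, -0.09 for *Gusb* and -0.06 for *Tfeb*, which thereby more than halved. *Ctsh*, *Tfe3* and *Gabarapl1* passed without any 1 of the other arrays, *Tfeb* failed without 4, 6 or 8 d, *Gusb* passed in 2 of the 8 cases and *Naglu* only without 8 d.

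The course was also fitted by period. With 1 effect over 1 to 4 d and another over 6 and 8 d, the members' median was 0.20 at 1 to 4 d and -0.087 at 6 and 8 d. Over all probe sets it was -0.065 and -0.035. Of the 43 members 30 were above 0 at 1 to 4 d and 16 at 6 and 8 d. On single arrays 40.2% to 42.4% of all genes were higher at 1 to 4 d, and 44.1% and 46.8% at 6 and 8 d. This background was not matched in level, and the median member stood at percentile 83.6 of all genes. With only probe sets that reach 6, the medians of members and all probe sets were 0.20 and -0.021 at 1 to 4 d. At 6 and 8 d they were -0.20 and -0.041. At 1 to 4 d limma called 0 members in either direction, where 0.746% of probe sets were called higher and 0.0289% lower. Without adjustment 6 members were higher and 2 lower (p under 0.05), against 4186 and 3694 of the 45037 probe sets. At 6 and 8 d limma called *Ctsh* higher and *Ctsa*, *Tfe3* and *Tfeb* lower. That is 1 and 3 of 43 members, against 1.69% and 1.33% of probe sets. These 4 calls were lost without the 3 d or the 8 d array, without 6 d the call was *Scarb2* alone, and *Tfeb* was also lost without 1 d or 2 d and after quantile normalization once more. No member, and none of the 45037 probe sets (0%), passed the limma test of the difference between both effects, while without adjustment 2767 probe sets were higher and 3106 lower (1 and 8 members, p under 0.05).

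**Figure D1:**
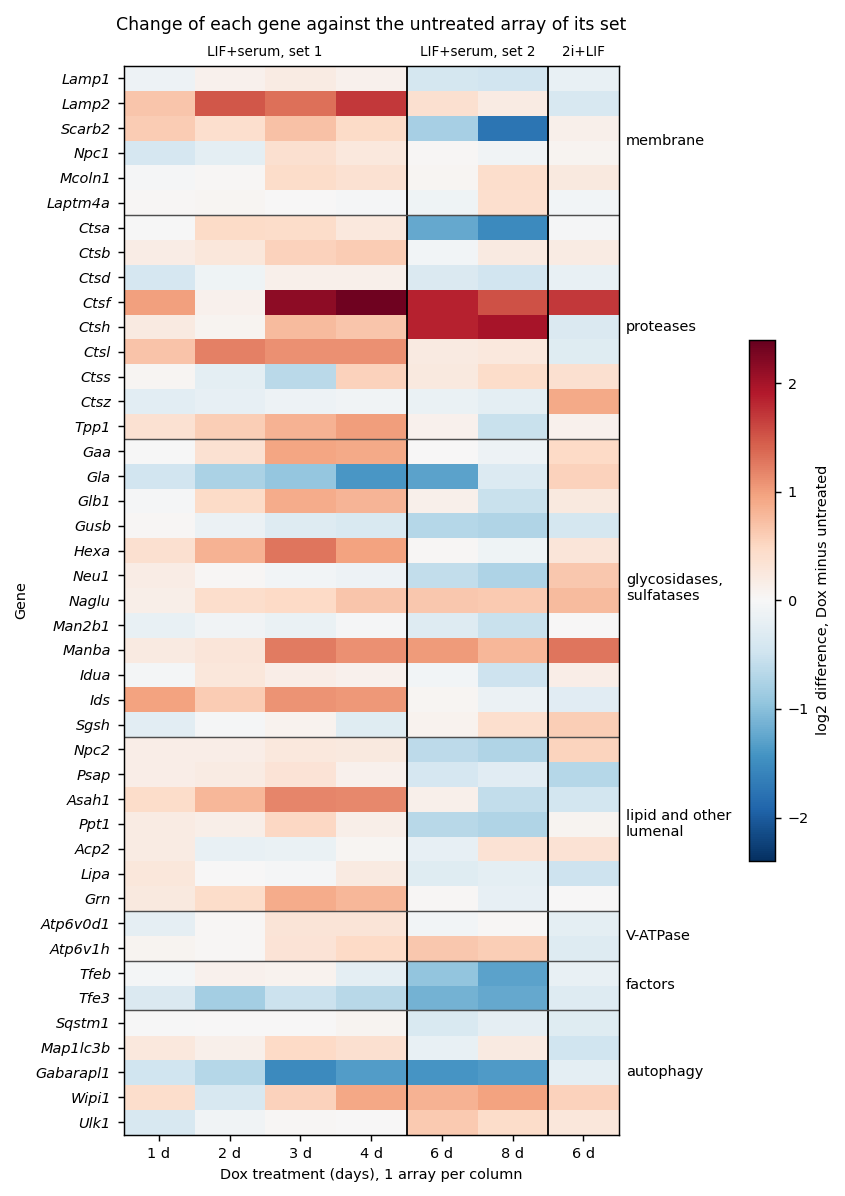
Log2 difference (colour scale, Dox minus untreated within a set) of 43 genes (rows, grouped by role) on 7 arrays (columns, days of Dox in LIF+serum set 1, LIF+serum set 2 and 2i+LIF). Red prevails at 3 and 4 d, where 13 and 15 genes were at least 1.5-fold higher and 3 lower. At 6 and 8 d 10 genes were at least 1.5-fold lower on each array, and 7 and 6 were higher by as much.

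Single arrays show how the counts went over time. After 1 d of Dox, 5 members were at least 1.5-fold higher and 0 lower (9.33% and 6.04% of probe sets), and after 2 d 6 were higher and 3 lower (10.3% and 8.23%). After 3 d 13 members were higher and 3 lower (12.2% and 11.1%), and after 4 d 15 and 3 (13.7% and 12.5%). After 6 d, against the other untreated array, 7 were higher and 10 lower (13.4% and 12.9%), and after 8 d 6 and 10 (12.7% and 12.4%). The shares of probe sets thus changed little between 3 and 8 d, while the members' split turned over. The members' median log2 change was 0.06, 0.10, 0.33 and 0.26 at 1, 2, 3 and 4 d and -0.07 and -0.19 at 6 and 8 d, and that of all genes lay between -0.10 and -0.04 throughout. The 4 early arrays share 1 untreated array and the 2 late arrays another. The untreated array of set 2 was itself above that of set 1 in 30 of 43 members, against 43.7% of probe sets. Of the members 9 were above by at least 1.5-fold and 3 below by as much (14.7% and 14.0% of probe sets), so that the turn cannot be told apart from the change of array set.

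By position against the untreated arrays, 18 members were higher on all 4 arrays of 1 to 4 d (22.7% of probe sets, 21.9% of genes). On all 4, 5 members were lower (33.4% and 36.95%). At 6 and 8 d, 12 were higher on both arrays (36.1% and 35.5%) and 18 lower (42.3% and 44.6%). Only *Ctsf*, *Ctsh*, *Ctsl* and *Naglu* (4 of 43) were above both untreated arrays on all 6 Dox arrays. The same held for 3.74% of probe sets and 3.63% of genes. *Man2b1* and *Tfe3* were below both on all 6, as were 7.15% of probe sets and 9.15% of genes. Fitted over set 1 alone, the slope called 7 members, of which only *Gabarapl1* was also called over both sets. *Lamp2*, *Asah1*, *Tpp1*, *Gaa* and *Manba* rose (5 of 43, against 3.56% of probe sets) and *Gla* and *Gabarapl1* fell (2 of 43, against 2.20%), with adjusted p from 0.0196 to 0.0415 in limma.

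Among the lysosomal membrane genes, *Lamp2*, whose product is a main glycoprotein of the organelle's membrane and in 1 splice form takes up proteins directly, stood at 7.47 on the untreated array of set 1 and at 8.13, 8.96, 8.80 and 9.17 after 1, 2, 3 and 4 d of Dox. In set 2 it stood at 9.03 untreated, 9.42 at 6 d and 9.23 at 8 d. All 4 early arrays were clearly above their untreated array, but the untreated array of set 2 was itself in their range, 2.94-fold over that of set 1. The fitted effect was 1.29 (standard error 0.34, adjusted p = 0.114 in limma) at 1 to 4 d and 0.29 (standard error 0.38) at 6 and 8 d. Within set 1 it rose by 0.41 per day (standard error 0.08, adjusted p = 0.0272 in limma), and its 3 other probe sets gave early effects of 1.38, 0.75 and 0.40, none of which passed.

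*Scarb2*, which encodes LIMP-2, the receptor that carries glucocerebrosidase to lysosomes, went the other way late. Its level was 9.06 untreated and 9.67, 9.47, 9.77 and 9.52 at 1 to 4 d in set 1, and 9.67 untreated, 8.88 at 6 d and 7.92 at 8 d in set 2. The early arrays were all above, and the late arrays both below, their untreated arrays. The late effect was -1.27 (standard error 0.35, adjusted p = 0.0852 in limma). A second, dimmer probe set of *Scarb2* passed at 6 and 8 d (-1.73, adjusted p = 0.0436) and in the trend (-0.23 per day, adjusted p = 0.00726), with an early estimate of -0.30, so that the early direction differed between its probe sets. The cholesterol exporter gene *Npc1*, the lysosomal cation channel gene *Mcoln1*, *Lamp1* and the membrane protein gene *Laptm4a* stayed between 0.725-fold and 1.35-fold on every Dox array in LIF+serum.

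Of 9 cathepsins and other proteases, *Ctsh*, an aminopeptidase, showed the steepest slope that passed. It stood at 4.39 untreated and 4.61, 4.46, 5.15 and 5.06 at 1 to 4 d, and at 4.36 untreated, 6.20 at 6 d and 6.34 at 8 d. Every Dox array lay above both untreated arrays, which were nearly equal, and the late arrays stood apart from the rest. The slope was 0.24 per day (log2, standard error 0.03, adjusted p = 0.00431 in limma) and the late effect 1.91 (standard error 0.31, adjusted p = 0.0268), or 3.76-fold. Its second probe set also rose (0.21 per day, adjusted p = 0.0198). The level is low, so the fold on this scale may understate the change of the transcript.

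*Ctsf*, a cysteine protease, was at 7.19 untreated and 8.18, 7.30, 9.33 and 9.52 at 1 to 4 d, and at 7.27 untreated, 9.11 at 6 d and 8.80 at 8 d. The 6 Dox arrays were all above both untreated arrays, but 2 d hardly so (1.08-fold) while 4 d reached 5.03-fold. With this spread neither the slope (0.30 per day, standard error 0.08, adjusted p = 0.0514) nor the early effect (1.39, standard error 0.71, adjusted p = 0.354) nor the late effect (1.69, standard error 0.78, adjusted p = 0.253) passed in limma. A dimmer second probe set had an early effect of -0.06. 

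*Ctsl*, a cysteine endopeptidase, stood at 10.76 untreated and 11.45, 11.96, 11.86 and 11.85 at 1 to 4 d, then 11.38 untreated, 11.60 at 6 d and 11.64 at 8 d. It was higher on every Dox array, 2.03-fold over the early ones (log2 effect 1.02, standard error 0.23, adjusted p = 0.0726 in limma) with a late estimate of 0.24 (standard error 0.25).

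**Figure D2:**
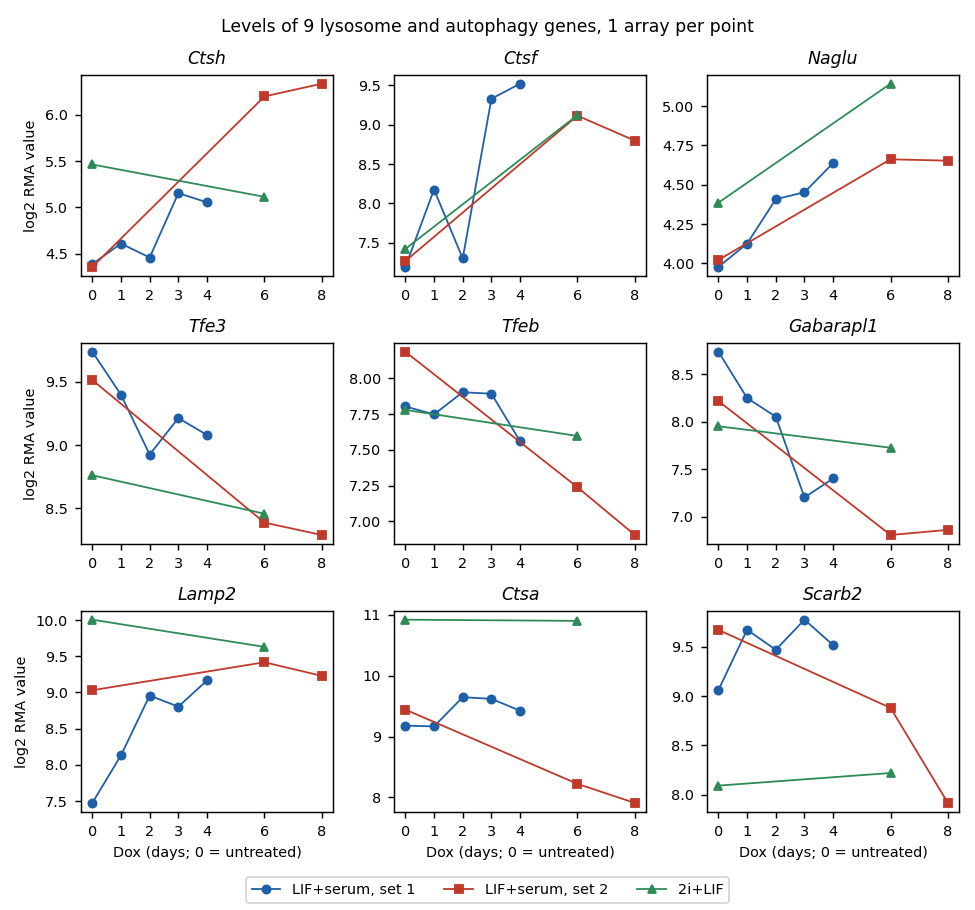
Log2 RMA values (vertical axes) of 9 genes against days of Dox (horizontal axes, 0 for untreated), 1 array per point, with lines joining the arrays of LIF+serum set 1 (circles), LIF+serum set 2 (squares) and 2i+LIF (triangles). *Ctsh* reaches 6.34 at 8 d against 4.36 untreated in set 2 but is 5.12 with Dox and 5.46 without in 2i+LIF, and *Ctsf* reaches 9.52 at 4 d, 9.11 at 6 d and 9.12 with Dox in 2i+LIF, against 7.19 to 7.42 on the 3 untreated arrays.

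*Ctsa*, a carboxypeptidase that also shields beta-galactosidase and neuraminidase, was also low late. Its level was 9.18 untreated and 9.17, 9.64, 9.62 and 9.42 at 1 to 4 d, and 9.44 untreated, 8.22 at 6 d and 7.91 at 8 d. Both late arrays were below every other LIF+serum array. The late effect of -1.38 (standard error 0.26, adjusted p = 0.0372 in limma) was 0.385-fold, while the early estimate was 0.29 (standard error 0.24). A second, dim probe set had a late effect of -0.32 (adjusted p = 0.487), and with the mean of both probe sets the late call was lost. *Ctsz*, a carboxypeptidase, differed little in LIF+serum (10.67 untreated and 10.41, 10.48, 10.55 and 10.58 at 1 to 4 d, and 10.37 untreated, 10.22 and 10.14 at 6 and 8 d). Its Dox arrays were nonetheless all below the untreated array of their set, the lowest at 0.834-fold. Tripeptidyl peptidase *Tpp1* reached 2.01-fold after 4 d, against 0.692-fold after 8 d, and its untreated array of set 2 was 1.48-fold over that of set 1. The aspartic protease gene *Ctsd* was between 0.730-fold and 1.09-fold. For *Ctsb* the probe sets disagreed. The brightest did not pass (0.05 per day), and 2 dim ones rose (0.19 and 0.32 per day, adjusted p = 0.0118 and 0.00362 in limma).

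Of 12 glycosidases and sulfatases, 1 rose and 1 fell (8.33% each, against 4.77% and 4.17% of probe sets). *Naglu*, which removes N-acetylglucosamine from heparan sulfate, stood at 3.98 untreated and 4.13, 4.41, 4.45 and 4.64 at 1 to 4 d, and at 4.02 untreated, 4.66 at 6 d and 4.65 at 8 d. It was above both untreated arrays on all 6 Dox arrays, with a slope of 0.10 per day (standard error 0.03, adjusted p = 0.0406 in limma), at a level under 6 on all of them. *Gusb*, beta-glucuronidase, was at 7.15 untreated and 7.16, 7.0, 6.83 and 6.77 at 1 to 4 d, and at 7.58 untreated, 6.90 at 6 d and 6.85 at 8 d. It was at the untreated level after 1 d and below it on the later arrays (slope -0.10 per day, standard error 0.02, adjusted p = 0.0337), and its second probe set fell too (-0.16 per day, adjusted p = 0.0339).

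*Ids*, iduronate 2-sulfatase, was at 6.68 untreated and 7.64, 7.28, 7.75 and 7.73 at 1 to 4 d, and at 7.75 untreated, 7.80 at 6 d and 7.62 at 8 d. The early arrays stood above their untreated array (0.92, standard error 0.23, adjusted p = 0.0963 in limma), while the untreated array of set 2 was about as high as the highest of them. The dimmer probe sets of *Ids* gave early effects from -0.10 to 0.34, none of which passed. *Manba*, beta-mannosidase, was at 9.49 untreated and 9.71, 9.79, 10.74 and 10.59 at 1 to 4 d, and at 10.31 untreated, 11.33 at 6 d and 11.10 at 8 d. It was higher on all 6 Dox arrays than in its own untreated cells, with a slope of 0.16 per day (standard error 0.05, adjusted p = 0.0540).

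*Gla*, alpha-galactosidase, was at 8.52 untreated and 8.07, 7.76, 7.59 and 7.12 at 1 to 4 d, and at 8.05 untreated, 6.76 at 6 d and 7.71 at 8 d. Each array of set 1 was below the one before it, and within that set *Gla* fell by 0.33 per day (standard error 0.05, adjusted p = 0.0196 in limma), but over both sets it did not pass (adjusted p = 0.172). The dimmer probe sets of *Gla* had slopes of 0.03 and 0.02 per day over both sets, against -0.14 for the brightest. *Hexa*, the alpha subunit of beta-hexosaminidase, reached 2.43-fold after 3 d, against 0.935-fold after 8 d. The glycogen-degrading *Gaa* reached 1.93-fold after 3 d, against 0.919-fold after 8 d, and beta-galactosidase *Glb1* 1.85-fold, against 0.690-fold. The untreated array of set 2 was over that of set 1 by 1.91-fold in *Hexa*, 1.24-fold in *Gaa* and 1.41-fold in *Glb1*. Against the untreated array of set 1, the 8 d array stood at 1.78-fold, 1.14-fold and 0.972-fold. The sialidase *Neu1* stood at 0.958-fold after 3 d but 0.597-fold after 8 d (with a slope of -0.08 per day, adjusted p = 0.0697). *Man2b1*, *Idua* and *Sgsh* stayed between 0.689-fold and 1.32-fold.

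None of 7 lipid hydrolases, cofactors and other lumenal proteins passed in the trend, early or late. Their median effect was 0.21 early and -0.26 late, against -0.065 and -0.035 over all probe sets. *Asah1*, acid ceramidase, was at 9.61 untreated and 10.04, 10.41, 10.77 and 10.76 at 1 to 4 d, and at 10.04 untreated, 10.17 at 6 d and 9.44 at 8 d. It was higher throughout set 1, where it rose by 0.30 per day (standard error 0.06, adjusted p = 0.0277 in limma), and lowest of all LIF+serum arrays at 8 d. *Psap*, the precursor of the saposins that help degrade sphingolipids, was at 9.52 untreated and 9.67, 9.72, 9.85 and 9.63 at 1 to 4 d, and at 9.46 untreated, 9.05 at 6 d and 9.19 at 8 d. It stood above its untreated array early and below it late by small amounts (0.20 and -0.34, standard errors 0.19 and 0.20).

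*Npc2*, which hands cholesterol to NPC1, and *Ppt1*, a thioesterase that strips palmitate from proteins, had the same order as *Psap*, at 1.20-fold and 1.41-fold at 3 d and 0.604-fold and 0.609-fold at 8 d. A dim probe set of *Npc2* rose over both sets (0.22 per day, adjusted p = 0.0180 in limma), opposite to its bright ones. The acid lipase *Lipa* was at 6.86 untreated and 7.13, 6.87, 6.82 and 7.08 at 1 to 4 d, and at 7.17 untreated, 6.88 at 6 d and 6.93 at 8 d, with Dox and untreated arrays overlapping. Progranulin, *Grn*, reached 1.84-fold after 3 d, against 0.874-fold after 8 d, and acid phosphatase *Acp2* lay between 0.874-fold and 1.28-fold.

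Both V-ATPase members stayed within 1.5-fold of their untreated level early. *Atp6v1h*, a regulatory subunit of the part that splits ATP, reached 1.56-fold after 6 d and 1.51-fold after 8 d (slope 0.09 per day, standard error 0.03, adjusted p = 0.0607 in limma), and *Atp6v0d1*, of the membrane part, lay between 0.866-fold and 1.25-fold on all 6 Dox arrays.

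Both transcription factors on the list fell, where 4.17% of probe sets did. *Tfe3* stood at 9.74 untreated and 9.40, 8.92, 9.21 and 9.08 at 1 to 4 d, and at 9.51 untreated, 8.39 at 6 d and 8.29 at 8 d. All 6 Dox arrays lay below both untreated arrays, the late ones lowest. The slope was -0.16 per day (standard error 0.03, adjusted p = 0.0153 in limma) and the late effect -1.18 (standard error 0.24, adjusted p = 0.0420), or 0.443-fold. *Tfeb* was at 7.80 untreated and 7.75, 7.90, 7.89 and 7.56 at 1 to 4 d, and at 8.19 untreated, 7.24 at 6 d and 6.91 at 8 d. Its early arrays straddled the untreated level (effect -0.03, standard error 0.22), and only the late ones lay clearly below (-1.11, standard error 0.24, adjusted p = 0.0475). Its slope was -0.13 per day (standard error 0.03, adjusted p = 0.0297), against -0.06 without the untreated array of set 2.

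Of the related factors, *Mitf* stood at 6.12 untreated and 7.59, 7.76, 8.82 and 9.17 at 1 to 4 d, which is 8.31-fold at 4 d, and at 8.36 untreated, 9.29 at 6 d and 8.01 at 8 d. The early arrays were all far above their untreated array, but so was the untreated array of set 2, and neither the slope (0.17 per day, adjusted p = 0.424 in limma) nor the early effect (2.22, standard error 0.64, adjusted p = 0.135) passed. *Tfec* lay between 2.24 and 2.87 on the LIF+serum arrays. *Flcn*, folliculin, which with its partners controls where TFE3 and TFEB reside, was between 0.955-fold and 1.15-fold at 1 to 4 d and 0.715-fold and 0.657-fold at 6 and 8 d (late effect -0.55, standard error 0.21, adjusted p = 0.180).

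Of 5 autophagy genes, 1 fell and none rose, where 4.17% of probe sets fell and 4.77% rose. *Gabarapl1*, which encodes a protein of the ATG8 family that coats autophagosomes, stood at 8.74 untreated and 8.25, 8.05, 7.20 and 7.40 at 1 to 4 d, and at 8.22 untreated, 6.81 at 6 d and 6.86 at 8 d. Every Dox array was below the untreated array of its set, and those from 2 d on were below both. It fell by 0.23 per day (standard error 0.04, adjusted p = 0.0128 in limma), with effects of -1.01 (standard error 0.37, adjusted p = 0.212) early and -1.38 (standard error 0.41, adjusted p = 0.0970) late. The probe set carries a mark for possible shared transcripts, and a second one without it fell by 0.37 per day (adjusted p = 0.00661).

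*Wipi1*, which binds the phosphoinositide of forming autophagosomes, was at 6.42 untreated and 6.84, 6.03, 6.97 and 7.34 at 1 to 4 d, and at 7.19 untreated, 8.01 at 6 d and 8.16 at 8 d. The array at 2 d was below its untreated array and the other Dox arrays above theirs (slope 0.14 per day, standard error 0.05, adjusted p = 0.0874 in limma). Of its 5 dimmer probe sets, 1 rose (0.19 per day, adjusted p = 0.0447). *Map1lc3b*, which encodes LC3B, was at 11.49 untreated and 11.74, 11.61, 11.96 and 11.87 at 1 to 4 d, and at 11.40 untreated, 11.22 at 6 d and 11.61 at 8 d. It was among the brightest members, and its late arrays lay on either side of the untreated one. A dim probe set of *Map1lc3b* fell (-0.11 per day, adjusted p = 0.0443 in limma), where the slope of the brightest was 0.03. The autophagy receptor gene *Sqstm1* (p62) lay between 0.772-fold and 1.04-fold, and the initiating kinase gene *Ulk1* between 0.765-fold and 1.54-fold.

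Members can be sorted by their direction in both periods. In 7 of 43 (*Lamp2*, *Ctsf*, *Ctsh*, *Ctsl*, *Naglu*, *Manba* and *Atp6v1h*) every Dox array was above the untreated array of its set, as in 11.9% of probe sets, and in 5 (*Ctsz*, *Gla*, *Man2b1*, *Tfe3* and *Gabarapl1*) every one was below, as in 18.1%. *Scarb2*, *Npc2*, *Psap* and *Ppt1* were higher on all 4 early arrays and lower on both late ones (4 of 43, against 6.10% of probe sets), and 0 members showed the opposite order (7.92%). The largest fitted differences, late minus early, were those of *Scarb2* (-1.82, standard error 0.48, adjusted p = 0.195 in limma), *Ctsa* (-1.66, standard error 0.36, adjusted p = 0.149) and *Ctsh* (1.48, standard error 0.42, adjusted p = 0.215).

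**Figure D3:**
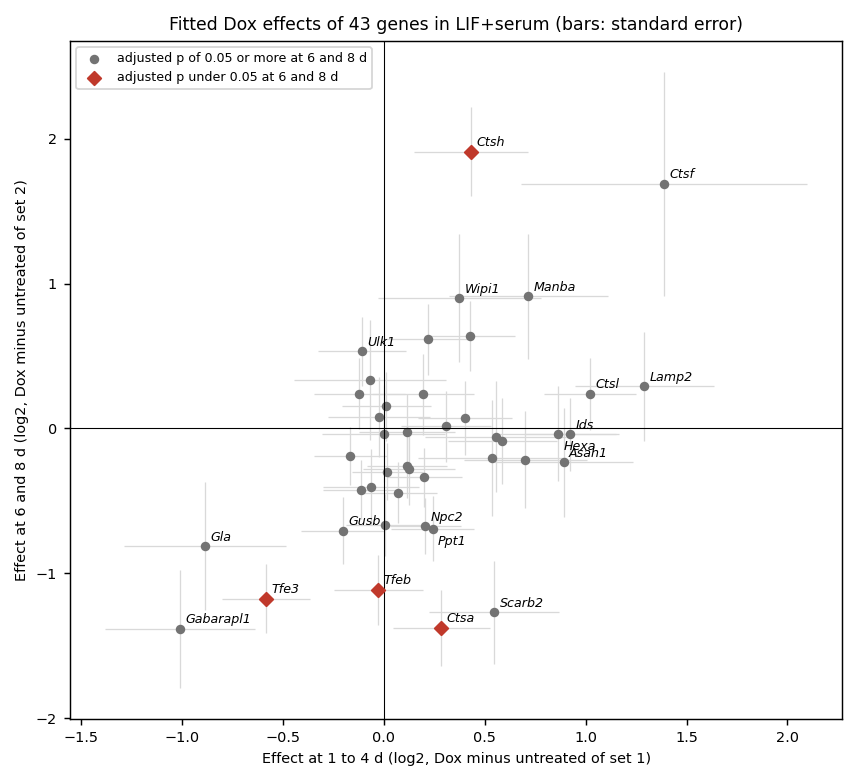
Fitted effect at 6 and 8 d (vertical axis) against that at 1 to 4 d (horizontal axis) for 43 genes in LIF+serum, both log2 (Dox minus untreated within a set), with standard errors from limma as bars. *Ctsh* (1.91), *Ctsa* (-1.38), *Tfe3* (-1.18) and *Tfeb* (-1.11) passed at 6 and 8 d (diamonds), and no gene passed at 1 to 4 d.

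In the 2i+LIF condition 6 d of Dox left 6 of 43 members at least 1.5-fold higher and 1 lower. The shares were 4.96% and 6.02% of probe sets, and 6.66% and 7.47% of genes. With 1 array against 1 there was no test. *Ctsf* was at 9.12 with Dox and 7.42 without (3.25-fold), and *Manba* at 10.87 with Dox and 9.59 without (2.42-fold). *Ctsz* was at 11.59 with Dox and 10.69 without (1.87-fold), and *Naglu* at 5.14 with Dox and 4.39 without (1.69-fold). These are the largest differences upward. At 6 d in LIF+serum *Ctsf* was 3.60-fold, *Manba* 2.04-fold, *Naglu* 1.56-fold and *Ctsz* 0.900-fold. The share of all probe sets at least 1.5-fold higher in both media was not counted. *Neu1* was 1.57-fold in 2i+LIF, against 0.662-fold at 6 d in LIF+serum, and *Sgsh* was 1.51-fold. With the mean of all probe sets of a gene, neither *Neu1* nor *Sgsh* reached 1.5-fold in 2i+LIF.

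Downward, *Psap* was at 10.59 with Dox and 11.29 without (0.619-fold), *Lipa* at 6.18 with Dox and 6.68 without (0.706-fold), *Map1lc3b* at 11.89 with Dox and 12.38 without (0.715-fold) and *Asah1* at 10.55 with Dox and 11.00 without (0.736-fold). Of the 6 genes called in the slope over both LIF+serum sets, all but *Naglu* stood below their untreated level here. Of all genes, 52.8% were higher with Dox in 2i+LIF. *Ctsh* was 0.785-fold, *Tfe3* 0.810-fold, *Tfeb* 0.882-fold, *Gabarapl1* 0.855-fold and *Gusb* 0.745-fold. Over the members the median log2 change was 0.06, and over all genes 0.02. The difference between media was not tested.

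The untreated 2i+LIF array was also set against both untreated LIF+serum arrays. By this comparison, which shares the untreated 2i+LIF array with the one before, 32 of 43 members were higher in 2i+LIF than on both untreated LIF+serum arrays, against 26.5% of probe sets and 30.2% of genes, and 8 were lower than on both, against 47.2% and 44.3%. The median member was 0.82 (log2) above the untreated array of set 1 and 0.63 above that of set 2, where the median gene was 0.14 and 0.09 below. *Psap* was at 11.29 in 2i+LIF, against 9.52 and 9.46 in LIF+serum, and *Ctsb* at 11.26 against 9.33 and 9.67. *Ctsa* was at 10.92 in 2i+LIF, against 9.18 and 9.44 in LIF+serum, and *Grn*, read from a probe set marked for possible shared transcripts, at 12.18 against 10.70 and 10.66. In each of these genes the 2i+LIF array stood more than 1 log2 unit above both LIF+serum arrays, which lay close together. The LIF+serum arrays lay further apart in *Lamp2* (10.01 in 2i+LIF, against 7.47 and 9.03). So they did in *Wipi1* (8.28 against 6.42 and 7.19) and *Hexa* (11.44 against 9.52 and 10.45).

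The 8 lower members were *Scarb2*, *Ctss*, *Gla*, *Idua*, *Lipa*, *Tfeb*, *Tfe3* and *Gabarapl1*. *Tfe3* was at 8.76 in 2i+LIF, against 9.74 and 9.51 in LIF+serum, *Tfeb* at 7.78 against 7.80 and 8.19, and *Mitf* at 9.79 against 6.12 and 8.36. There is 1 array in 2i+LIF, and the sources used here do not say which arrays were normalized together. The array medians were 5.14 in 2i+LIF, against 5.32 and 5.26 in LIF+serum, and after normalizing all 10 arrays by quantiles once more 29 of the 32 members were still above both. The 3′ minus 5′ signal of beta-actin was 0.78 on the untreated 2i+LIF array, against 0.41 and 0.88 on the untreated LIF+serum arrays. Medium, culture and array set cannot be told apart.

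**Figure D4:**
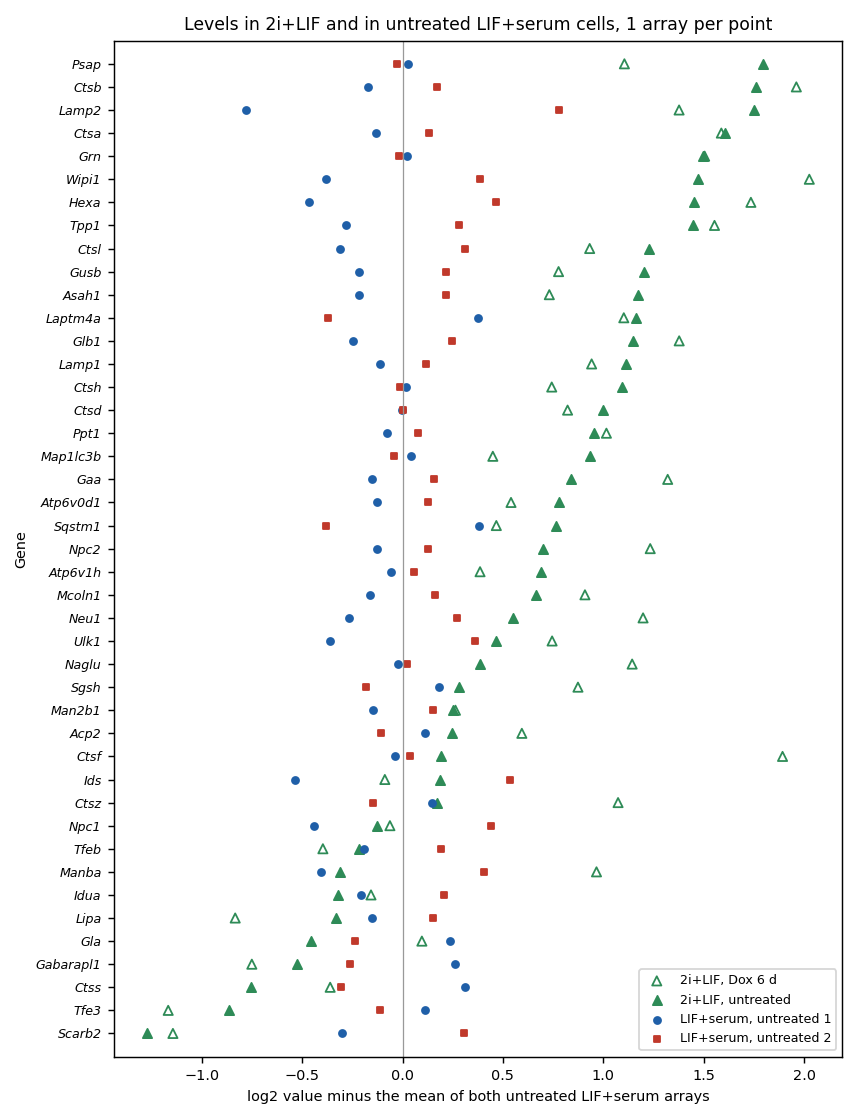
Log2 value minus the mean of both untreated LIF+serum arrays (horizontal axis) for 43 genes (rows, ordered by the untreated 2i+LIF array), with 2i+LIF after 6 d of Dox (open triangles), untreated 2i+LIF (filled triangles) and untreated LIF+serum set 1 (circles) and set 2 (squares). In 32 genes the filled triangle lies to the right of both LIF+serum points and in 8, among them *Scarb2* and *Tfe3*, to the left of both.

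Of 121 further genes of the pathway, in 6 lists, 10 rose and 4 fell with days of Dox in LIF+serum (8.26% and 3.31%, against the 4.77% and 4.17% of probe sets above). Of 40 other autophagy genes 5 rose and none fell. *Rb1cc1* (FIP200), a scaffold of the ULK1 kinase complex, rose by 0.25 per day (standard error 0.06, adjusted p = 0.0301 in limma) and reached 4.38-fold after 4 d, with 2.45-fold after 8 d. *Ulk2*, a second initiating kinase gene, rose by 0.21 per day (standard error 0.04, adjusted p = 0.0138), and *Atg12*, *Nbr1* and *Calcoco1* were the others. Of 18 other hydrolases 1 rose, the dipeptidyl peptidase *Ctsc* (0.27 per day, standard error 0.04, adjusted p = 0.00507), which was 4.45-fold at 8 d.

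Of 22 relatives and nutrient-sensing regulators of these factors 3 rose and 1 fell. *Tsc1*, a brake on mTORC1, rose by 0.23 per day (standard error 0.04, adjusted p = 0.00842 in limma), *Zkscan3*, a repressor of autophagy genes, by 0.18 (standard error 0.03, adjusted p = 0.00799), and *Foxo3* rose as well. *Rragd*, a Rag GTPase, was at 9.58 untreated and 7.74 and 7.88 at 6 and 8 d, with a late effect of -1.77 (standard error 0.30, adjusted p = 0.0286). Its early arrays stood between 8.83 and 9.58, around the untreated 9.04. The V-ATPase subunit gene *Atp6v1e1* rose (1 of 13; 0.12 per day, adjusted p = 0.0370). Of 9 genes of mannose 6-phosphate sorting, *Gnptab*, which makes the tag, and the adaptor gene *Gga2* fell (-0.20 and -0.09 per day, adjusted p = 0.0211 and 0.0422), and *Cd68* fell among 19 other membrane proteins (-0.17 per day, adjusted p = 0.0150).

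Other cell types were looked for, since macrophages and fibroblasts are rich in lysosomes. The summed linear level of 8 macrophage markers was 252 to 266 at 1 to 4 d and 240 to 242 at 6 and 8 d, against 280 and 211 untreated, with 1 of 8 genes above 6 on each Dox array, and *Cd14* of that list was called higher at 6 and 8 d. That of 8 fibroblast markers was 228 to 283 at 1 to 4 d, 275 at 6 d and 418 at 8 d, against 270 and 271 untreated, and *Pdgfra* of that list rose. In 2i+LIF the macrophage markers summed to 199 with Dox and 177 without and the fibroblast markers to 167 and 179, with 0 genes above 6. Trophoblast markers summed to 690 to 865 at 1 to 4 d, 1472 at 6 d and 2316 at 8 d, against 940 and 903 untreated, and to 1101 with Dox and 2213 without in 2i+LIF. The 10 endoderm markers summed to 307 to 396 at 1 to 4 d, 334 at 6 d and 482 at 8 d, against 412 and 302 untreated. The part of these shifts in the late results was not tested. In such bulk samples, fewer cells of a type and less RNA per cell cannot be told apart.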

How the data were processed

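RNA was measured on 10 arrays. The authors normalized the arrays by RMA in R (RMA and affy are named in the submitters' processing notes, versions not given in the sources used here) and deposited log2 values. RMA shrinks differences among weak signals, and those sources do not state which arrays shared a normalization. Of 45101 probe sets, 64 controls were left out. GEO's platform annotation gave 34945 probe sets 1 symbol, 932 several and 9160 none listed. The 43 members have 101 probe sets, and their symbols were checked by Entrez ID.

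From these values limma 3.58.1 (R 4.3.3, lmFit and eBayes) fitted, over the 8 LIF+serum arrays, a slope per day of Dox with array set as a covariate (5 residual and 4.81 prior degrees of freedom) and a second model with 1 effect for 1 to 4 d and 1 for 6 and 8 d (4 and 4.74). In it, times of a block serve as repeats, so a trend within a block counts as error. Benjamini-Hochberg adjustment covered the 45037 probe sets, with a threshold of 0.05. The 2i+LIF arrays were counted past 1.5-fold without a test. The slope and the effects of both periods were tried on simulated data with independent noise and added effects. Such data cannot show how sharing 1 untreated array per set bears on the calls. The difference between both effects was not simulated. Other steps used Python 3.11.15, pandas 2.3.3, numpy 2.4.6 and matplotlib 3.10.9.

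Named in full are members past the threshold in the trend and the 4 highest and 4 lowest effects at 1 to 4 d, at 6 and 8 d and in 2i+LIF. Up to 2 genes past the threshold are given with values from each further list, by slope, with *Mitf*, *Tfec* and *Flcn*. Other genes named were chosen after their values were seen. The members and all lists were chosen with earlier results of these data known. Alternatives changed the eBayes options, the filter, the normalization, the probe set, the covariate, the time scale and the threshold, or left out each array. The number of arrays limits the precision.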

Additional observations from a re-analysis of the deposited data

Results flagged for a closer look

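*Scarb2*, *Npc2*, *Psap* and *Ppt1* were higher on all 4 arrays of 1 to 4 d and lower on both arrays of 6 and 8 d in LIF+serum, an order that 6.10% of probe sets showed. Their effects at 6 and 8 d minus those at 1 to 4 d were -1.82, -0.88, -0.54 and -0.93 on the log2 scale, and the limma test of that difference gave adjusted p of 0.195, 0.229, 0.460 and 0.256, so none passed. *Neu1* was 1.57-fold at 6 d of Dox in 2i+LIF, against 0.662-fold at 6 d in LIF+serum, and its log2 changes differed by 1.24 between the media (2i+LIF minus LIF+serum). With 1 array per condition this difference was not tested. The dimmer probe sets of *Neu1* had effects of -0.03 and 0.06 at 6 and 8 d in LIF+serum, against -0.67 for the brightest. With the mean of its probe sets *Neu1* did not reach 1.5-fold in 2i+LIF.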

How the results depend on the processing

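The count of members that rose with days of Dox (2) was 4 with only probe sets that reach 6 (log2), 4 after quantile normalization once more, 5 with the mean of all probe sets of a gene, 5 without the array set term, 4 per log2(day + 1), 5 within set 1 and 6 at an adjusted p under 0.1 (7.52% of probe sets). *Ctsh* was among them in each of these settings but the fit of set 1, which shared 0 genes with the main count. The count that fell (4) was 2 within set 1. At an adjusted p under 0.1, 2 members (*Ctsl* and *Ids*) were higher at 1 to 4 d and 6 were lower at 6 and 8 d, against 2.98% and 4.14% of probe sets. In 2i+LIF, 2 members were higher and 0 lower at 2-fold, and 2 lower (*Psap* and *Gabarapl1*) with unmarked probe sets. The counts of untreated 2i+LIF against untreated LIF+serum, whose alternatives were chosen after seeing the data, ranged from 26 to 32 higher and 8 to 10 lower.

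Leaving out each array in turn, 0 to 4 members rose and 0 to 7 fell, 0 to 2 were higher (2 without 1 d, *Lamp2* and *Ctsl*) and 0 to 0 lower at 1 to 4 d, 0 to 1 higher and 0 to 3 lower at 6 and 8 d, and 0 to 0 differed between both periods. The 7 that fell were found without the untreated array of set 1. The early effect has no value without that array, nor the late effect without the untreated array of set 2, and a block left with 1 array is assumed to vary like the others. Over the settings of the slope other than the threshold, 4 of them added for single genes after seeing the data, the slopes of the 20 members named in full kept direction and side of the threshold in 253 cases, passed newly in 24, no longer passed in 29 and changed sign in 13. Those 13, none past the threshold there, were *Ids* (leave-one-out range -0.00012 to 0.169) and *Asah1* (-0.014 to 0.193), negative without the untreated array of set 1, *Ctsa* (-0.160 to 0.052), *Scarb2* (-0.176 to 0.0041), *Psap* (-0.036 to 0.044) and *Lipa* (-0.034 to 0.015), positive without that of set 2 and within set 1 alone (0.094, 0.10, 0.039 and 0.013), *Map1lc3b* with the mean of its probe sets (-0.0061) and without the set term (-0.0029), and *Asah1* without the set term (-0.016). Without a shared replicate number for any Dox time, no replicate block was fitted. No paired analysis was possible because each Dox time is 1 array, and the numbers of the untreated arrays name their sets. The causes of these shifts were not tested.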
